A study of Homo sapiens with 17 samples.

Results

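The response of L363 cells to MS275 was measured over all rapamycin levels of the experiment. L363 is an established human multiple myeloma line, a malignant plasma cell line, and MS275 (MS-275, entinostat) inhibits histone deacetylases of class I. Total RNA was measured on 17 oligonucleotide arrays after 48 h of culture. All 8 arrays of cells given 0.5 uM MS275 were set against all 9 arrays of cells given none, so that every array of the series was used. The cells without MS275 were untreated controls, cells given 1 nM rapamycin and cells given 10 nM rapamycin, with 3 arrays each. The cells with MS275 were cells given MS275 alone and cells given MS275 with 1 nM rapamycin, with 3 arrays each, and cells given MS275 with 10 nM rapamycin, with 2 arrays, 1 array having been removed by the submitters for its quality. A single line was used, and the labels do not say whether replicates came from separate cultures, so every p-value below measures only the spread between these arrays, which may be technical.

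Histone deacetylases remove acetyl groups from lysines of histones and other proteins. HDAC1, HDAC2 and HDAC3 work inside corepressor complexes that transcription factors bring to promoters, and acetylated histones are typical of active promoters. Inhibitors of class I deacetylases are known for raising genes that are normally silent in a tissue, for raising the cell cycle inhibitor CDKN1A, and for stopping proliferation, and MYC-driven growth of myeloma cells is one setting in which they have been studied together with mTOR inhibitors such as rapamycin.

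Each gene was represented by 1 probe set, which gave 19775 genes. Values are log2 signals, and a change is the log2 signal with MS275 minus that without it at the same rapamycin level, with the standard error (SE) of the limma fit. A gene was called when its p, adjusted over all 19775 genes by Benjamini-Hochberg, was under 0.05. "Rose" and "fell" below are used for called genes only. Detection calls were not used, so signal over background is unknown. Precision is limited by how many arrays there are: the median 95% interval of a gene's pooled change reached 0.317 to either side. Control replicate 1 and replicate 1 of MS275 with 1 nM rapamycin had a narrower range of values than the other 15 arrays (SD over probe sets 2.139 and 2.148, against 2.272 to 2.368). 1 of these arrays is without MS275 and 1 with it, and genes and list counts that moved without them are given below. Plasma cell genes had the highest mean signal of the 8 marker lists on every array, 8.87 to 9.58 without MS275 and 9.10 to 9.73 with it, against at most 5.99 for the B cell, T cell, myeloid, erythroid, epithelial and endothelial lists and 6.68 for the fibroblast list.

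MS275 moved 1758 genes, 8.89% of those tested. Of these, 978 (4.95% of all genes) were higher and 780 (3.94%) lower, and the median change was 0.80 among the former and -0.68 among the latter. The counts of the gene lists below are to be read against these shares. The rises reached further than the falls. More than a doubling was found for 320 genes that rose and more than a halving for 113 that fell, while 32 rose and 0 fell by more than 4-fold. The sign of the change was the same at 0, 1 and 10 nM rapamycin for 1754 of the 1758 genes. These genes were called on the pooled change of the same arrays, so the call itself largely fixes this agreement. For 641 genes (3.24% of all genes; 389 or 1.97% higher, 252 or 1.27% lower) the change also had an unadjusted p under 0.05 at each of the 3 levels, and these are called held at every level below. For 64 genes (0.324%; 50 higher, 0.253%, and 14 lower, 0.0708%) the adjusted p was under 0.05 at each level. In 674 genes (3.41%) the arrays with and without MS275 did not overlap within any level. They were higher with MS275 in 398 (2.01%), of which 395 were called, and lower in 276 (1.40%), of which 274 were called. Leaving out each of the 17 arrays in turn gave 1449 to 2441 called genes, and 1244 genes were called every time. For the genes held at every level, the same exercise gave 464 to 774, and 221 were held every time.

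The pooled comparison called many more genes than any single level. Within the 6-group model, MS275 moved 295 genes (1.49%; 205 higher, 90 lower) without rapamycin, 243 (1.23%; 185 higher, 58 lower) at 1 nM and 86 (0.435%; 59 higher, 27 lower) at 10 nM, where the combination has 2 arrays. In all, 1361 genes (6.88%) were called on the pooled effect and at no single level. The 3 levels have no array in common, so a gene called at 1 level could be followed in the arrays of the others, although the estimate of the spread is shared. Of the 295 genes called without rapamycin, 289 had the same sign at 1 nM, against 48.9% of all genes, and 239 (81.0%) also had an unadjusted p under 0.05 there, against 9.83% of all genes. At 10 nM, 292 (against 67.5% of all genes) had the same sign, and 249 (84.4%, against 7.12%) had an unadjusted p under 0.05. The genes that rose without rapamycin had a median change of 1.42 there, 1.15 at 1 nM and 1.05 at 10 nM. Those that fell had medians of -1.11, -0.71 and -0.89.

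**Figure D1:**
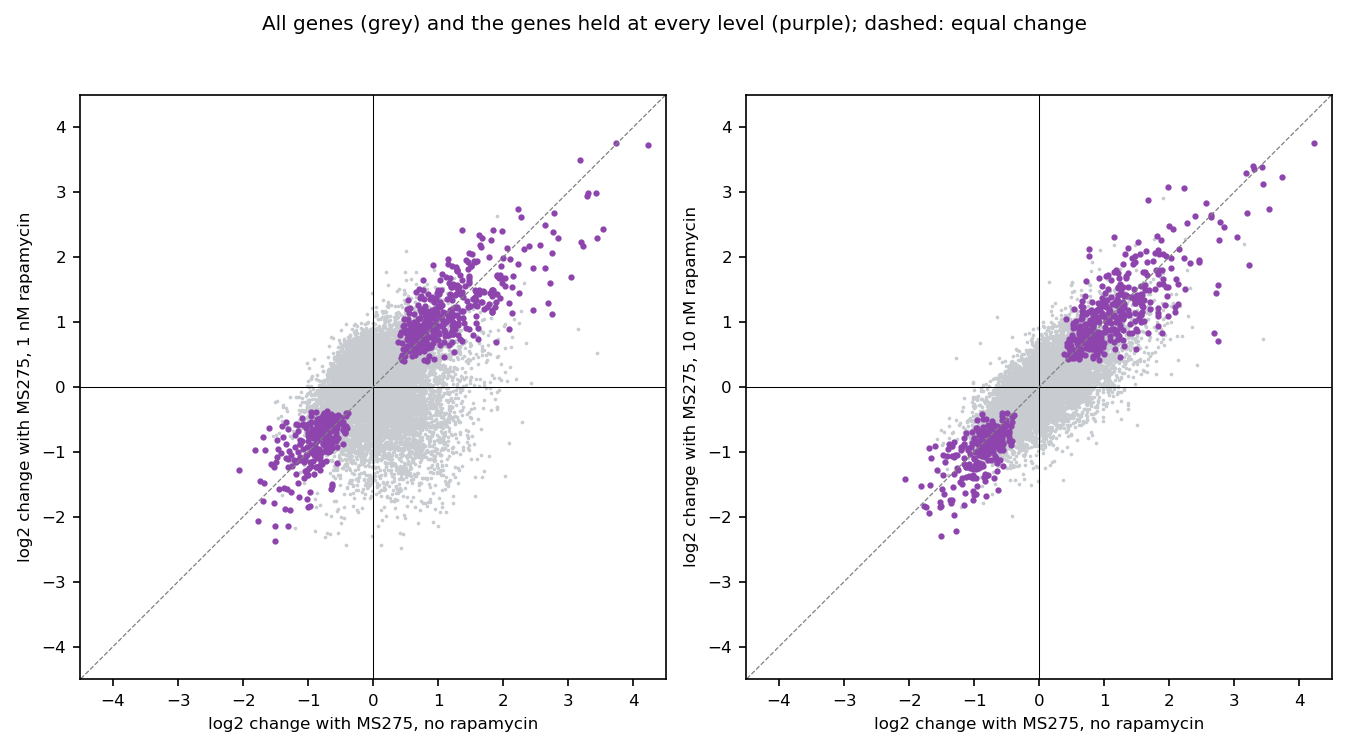
Log2 change with MS275 without rapamycin (horizontal axes) against that at 1 nM (left) and 10 nM rapamycin (right), for all 19775 genes in grey and the 641 genes held at every level in purple. The purple points lie in the 2 quadrants of equal sign, which the rule for holding requires, and spread around the dashed line of equal change.

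Counts at single levels leaned on single arrays. Without rapamycin the 295 became 157 when control replicate 3 was left out and 181, 164 and 97 when MS275 replicates 1, 2 and 3 were. At 1 nM the 243 became 413 without control replicate 1, 98, 112 and 80 without replicates 1, 2 and 3 of 1 nM rapamycin, and 121 and 140 without replicates 1 and 3 of the combination. At 10 nM the 86 became 157 without control replicate 1, 53 and 57 without replicates 1 and 3 of 1 nM rapamycin, 44, 38 and 32 without replicates 1, 2 and 3 of 10 nM rapamycin, and 16 and 11 without replicates 1 and 2 of the combination. With the replicate number as a block, the counts were 662 without rapamycin and 559 at 1 nM. The arrays at 0 and 1 nM bear out this pairing, and those at 10 nM do not.

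AHNAK, a very large scaffold protein beneath the plasma membrane, had the smallest p of the largest rises. Without MS275 it read 7.50, 7.27 and 6.94 in the controls, 6.44, 7.40 and 6.51 at 1 nM rapamycin and 6.80, 7.56 and 6.79 at 10 nM. With MS275 it read 10.71, 10.40 and 10.12 without rapamycin, 10.30, 10.14 and 10.39 at 1 nM and 10.66 and 10.03 at 10 nM. All 8 arrays with MS275 lie above all 9 without, and no rapamycin level stands apart. The change was 3.32 ± 0.17 (SE), with adjusted p = 1.23e-08, and 3.17, 3.49 and 3.30 at 0, 1 and 10 nM.

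The other large rises were of the same kind. CA2, a carbonic anhydrase that hydrates carbon dioxide, had the largest change, 3.91 ± 0.41 (adjusted p = 1.42e-05), with 3.76, 4.20 and 6.20 as its lowest, median and highest value without MS275 and 6.41, 9.02 and 10.76 with it. IL13RA2, a receptor that binds interleukin 13, went from 1.93, 2.39 and 3.08 to 4.73, 5.98 and 7.30 (change 3.60 ± 0.29, adjusted p = 1.06e-06). In both genes the lowest array with MS275 lies above the highest without. HEY1, a transcriptional repressor induced by Notch, changed by 3.26 ± 0.34, the microtubule-binding protein MAP2 by 3.20 ± 0.39 and the adhesion molecule NCAM1 (CD56) by 3.19 ± 0.19. NCAM1 values without MS275 ran from 4.32 to 4.97 and those with it from 6.85 to 8.82. The germ cell RNA-binding protein DAZL changed by 2.94 ± 0.46, PLAAT2 by 2.91 ± 0.49, the growth factor PDGFC by 2.70 ± 0.25, the slow muscle troponin TNNT1 by 2.67 ± 0.20, the transcribed pseudogene TPTE2P6 by 2.65 ± 0.18 and the phospholipid transporter ABCB4 by 2.58 ± 0.39. DAZL is the only one of these 12 whose arms, the arrays with and without MS275, touch over all levels, with 2.67 as the highest value without and the lowest value with MS275, and its arrays did not overlap within a level. Many of the 12 had low signals without MS275: the median was 2.09 for DAZL, 2.26 for TPTE2P6, 2.48 for PDGFC and 2.79 for MAP2, against 6.94 for AHNAK.

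**Figure D2:**
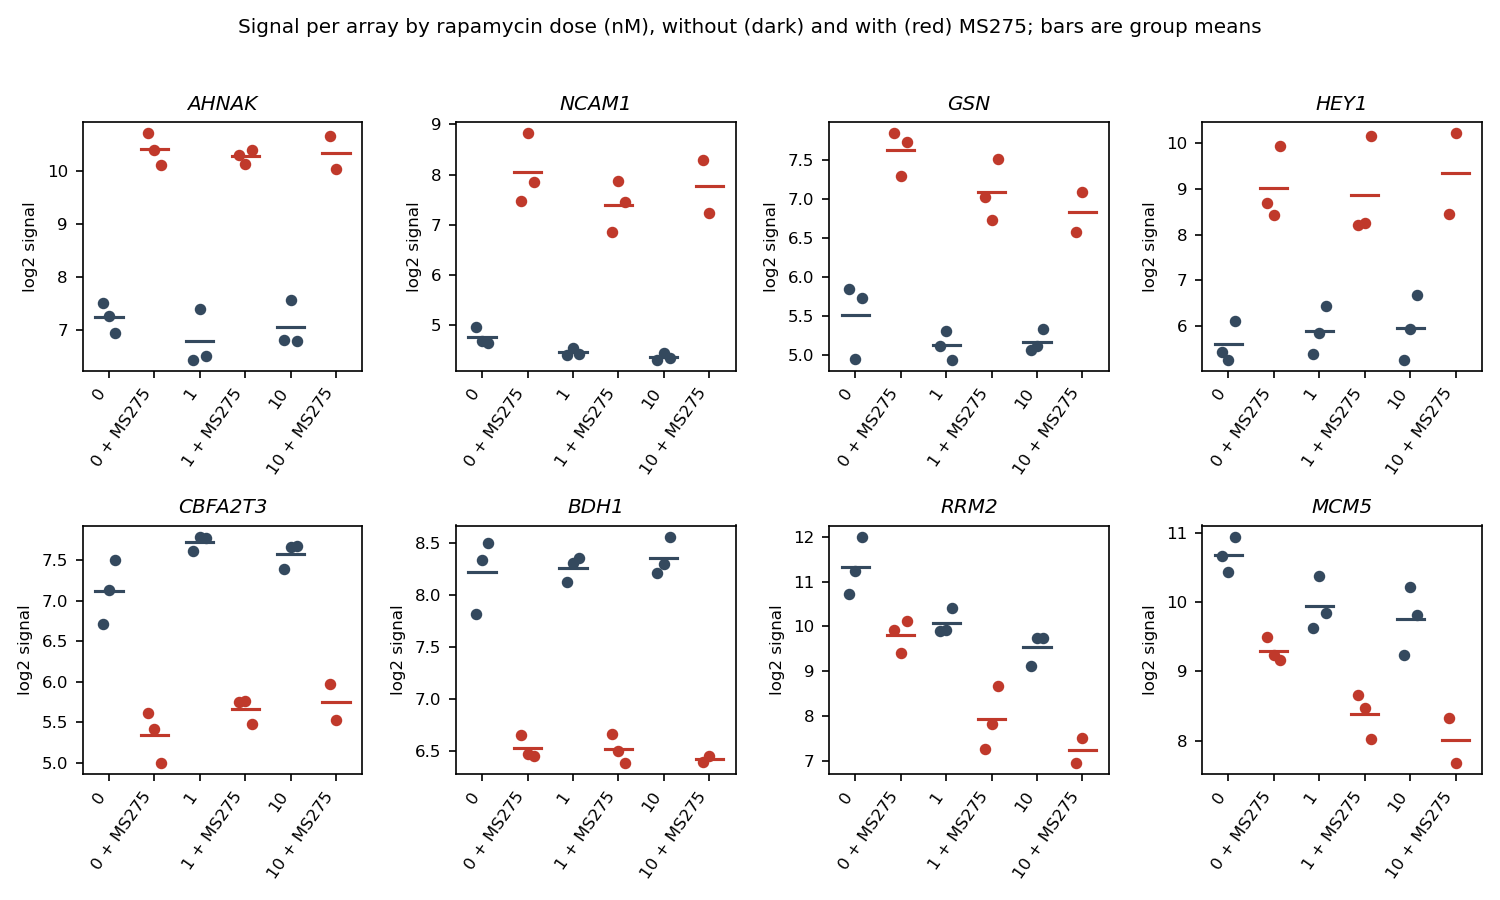
Log2 signal of 8 genes on every array, by rapamycin dose in nM, without MS275 (dark) and with it (red); short bars are group means. AHNAK, NCAM1, GSN and HEY1 are higher with MS275 at all 3 levels, CBFA2T3 and BDH1 are lower by a like amount at all 3, and RRM2 and MCM5 are lower both with MS275 and in the rapamycin groups.

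Falls were smaller than rises. BDH1, an enzyme of ketone body metabolism, read 7.82, 8.31 and 8.56 (lowest, median and highest) without MS275 and 6.38, 6.46 and 6.66 with it, a change of -1.79 ± 0.10 with adjusted p = 6.85e-08. The transcriptional corepressor CBFA2T3 read 6.72, 7.61 and 7.79 without and 5.0, 5.58 and 5.98 with MS275 (change -1.89 ± 0.13, adjusted p = 1.33e-07). In both genes the arrays with MS275 lie wholly below those without. RRM2, the small subunit of ribonucleotide reductase, which makes deoxynucleotides, had the largest fall, -1.96 ± 0.23 (adjusted p = 3.30e-05). Its 3 arrays per group read 10.73, 11.23 and 12 in the controls and 9.92, 9.40 and 10.11 with MS275 alone, 9.89, 9.91 and 10.40 with 1 nM rapamycin and 7.26, 7.83 and 8.68 with both, and 9.11, 9.74 and 9.74 with 10 nM rapamycin and 6.95 and 7.51 with both. The arrays do not overlap within a level, but those of MS275 alone overlap with those of rapamycin alone.

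The remaining large falls were of mixed function. The zinc finger factor PLAGL1 fell by 1.91 ± 0.31 (SE), the nucleic acid sensor ZBP1 by 1.80 ± 0.15, the fatty acid synthase FASN by 1.71 ± 0.21 and MYEOV, a gene first found in myeloma, by 1.67 ± 0.22. The thyrotropin receptor TSHR fell by 1.67 ± 0.21, NRROS, which binds latent TGF-beta, by 1.60 ± 0.17, the nuclease ANKLE1 by 1.56 ± 0.16 and the replicative helicase subunit MCM5 by 1.55 ± 0.16. Averaging all probe sets of a gene in place of taking the brightest moved the change of 42 of the 163 called genes named here by over 1.5 times, none of them in sign, and ended the call of 6, each given below. AHNAK is an example, with a change of 0.88 under that setting: its other 4 probe sets changed by 0.05 to 0.70. NCAM1 went to 1.02, 1 of its other probe sets having changed by 3.49 and the rest by -0.13 to 0.58. The other sets changed by 0.18 and 0.11 in PLAAT2, 0.23 in PDGFC, 0.30 in MAP2, -0.03 in FASN and -0.22 in BDH1. They changed by 2.45 in HEY1, 1.19 in ABCB4 and -1.60 and -1.55 in TSHR. Genes further on differ in this as well, and those given here are examples. Another set was at -0.07 in SCN3A, -0.02 in SLC2A1, 0.07 in VCL and 0.14 in CYP26B1. Other sets were at -0.04 and -0.02 in GINS2, -0.40 to 0.09 in H2AX and -0.09 to 0.44 in HLA-DOA. They were at 0.08 in TGFBR2, 0.10 in CCR2 and -0.16 in E2F7. Other sets moved with the brightest in CCL5 (2.73 and 2.67), TGFBR3 (2.12) and SLAMF7 (-1.34 and -1.23). Leaving the rapamycin level out of the model ended the call of 25 of the 163, most of them genes of proliferation and metabolism described further on.

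**Figure D3:**
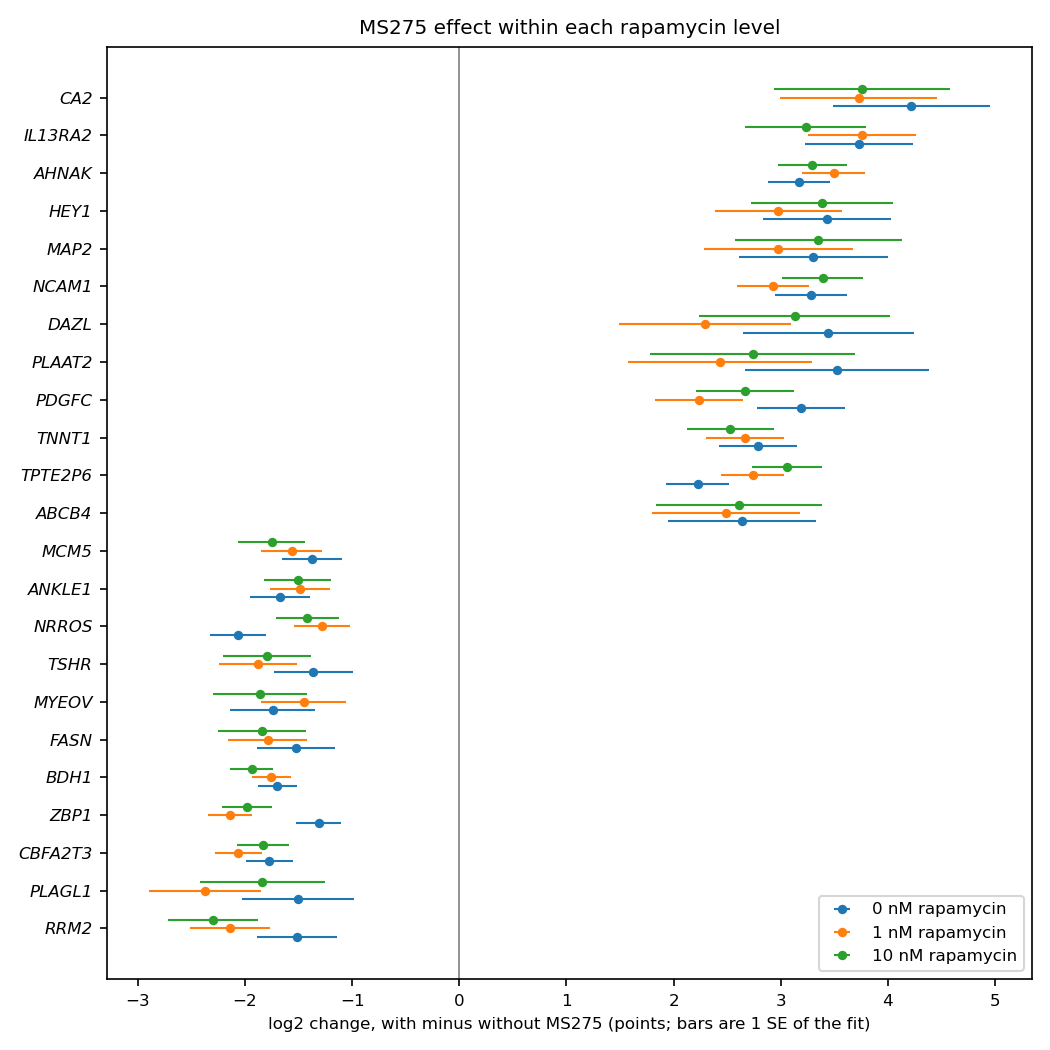
Log2 change with MS275 at 0, 1 and 10 nM rapamycin for the 12 largest rises and 11 of the 12 largest falls whose arrays do not overlap within a level; bars are 1 SE of the fit. All 23 genes keep their sign at every level, which the rule that chose them requires, and for AHNAK the changes are 3.17, 3.49 and 3.30.

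The enzymes that MS275 inhibits were not called. HDAC1 changed by -0.40 (95% interval 0.314 to either side, adjusted p = 0.117), HDAC2 by -0.08 (0.512) and HDAC3 by 0.09 (0.326), and of the 4 class I genes 0 rose and 0 fell by limma (1 had an unadjusted p under 0.05, lower). Without the 2 arrays of narrow range HDAC1 was called, at -0.47 with adjusted p = 0.000738, as it was without control replicate 1 alone (-0.53, adjusted p = 0.00126). HDAC2 turned to 0.044 and 0.034 without replicate 1 of MS275 with 1 nM and with 10 nM rapamycin. Among the 7 deacetylases of classes II and IV, HDAC6, a cytoplasmic tubulin deacetylase, rose by 0.70 ± 0.14 (adjusted p = 0.00289), a call that ended when its probe sets were averaged (adjusted p = 0.191). Of 33 genes of the corepressor complexes, 2 rose and 3 fell (6.1% and 9.1%, against 4.95% and 3.94% of all genes). TBL1XR1 and GPS2, components of the complex that holds HDAC3, rose by 1.01 ± 0.20 and 0.81 ± 0.12. CHD3, a remodelling ATPase of the NuRD complex, fell by 0.65 ± 0.11, as did CBFA2T3 (above). The call of the remaining gene did not outlast leaving out single arrays. Of the 18 acetyltransferases and acetyl-lysine readers 0 were called by limma (1 higher and 4 lower at an unadjusted p under 0.05), and 4 fell without the arrays of narrow range.

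Genes that deacetylase inhibitors raise in many cell lines answered in part. Of 20 measured, 6 rose and 1 fell (30.0% and 5.0%, against 4.95% and 3.94% of all genes), and the median change was 0.23, against 0.02 over all genes. GSN, which severs actin filaments, read 4.94, 5.11 and 5.85 (lowest, median and highest) without MS275 and 6.57, 7.19 and 7.84 with it, a change of 1.93 ± 0.15 (adjusted p = 1.06e-06). The arms do not overlap. This rests on 1 probe set: the other 6 of GSN changed by -0.15 to 0.11, and with all averaged the adjusted p was 0.110. CDKN1A, the p21 inhibitor of cyclin-dependent kinases, rose by 1.14 ± 0.25 (adjusted p = 0.00763), and by 0.82, 1.51 and 1.09 at 0, 1 and 10 nM. Its values were highest in the cells without rapamycin, 9.79, 8.09 and 9.26 in the controls and 10.50, 8.98 and 10.10 with MS275, and ran from 6.95 to 7.63 in the 6 arrays of rapamycin alone, so its arms overlap over all levels. At 0 nM the groups overlap too, but each MS275 array lies above the control of the same replicate number. With no term for rapamycin in the model, the adjusted p was 0.0845. TGFBR2, CRIP2 and KLF6 rose by 1.35 ± 0.26, 1.19 ± 0.21 and 0.74 ± 0.13. H2BC21, a histone gene of this list, went the other way, at -0.95 ± 0.19. Among 10 inhibitors of the cell cycle, CDKN1A, BTG1 (1.09 ± 0.20) and 2 more rose and 0 fell. That count dropped to 2 without control replicate 2, without replicate 1 or 2 of 1 nM rapamycin, without replicate 3 of MS275 with 1 nM or without replicate 2 of MS275 with 10 nM rapamycin, and on quantile-normalised values.

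DNA replication was the list with the largest share of falls. Of 38 measured genes, 20 fell (52.6%, against 3.94% of all genes) and 0 rose, 11 of the falls held at every level, and the median change was -0.80. At 0, 1 and 10 nM rapamycin the median was -0.50, -1.04 and -0.84, while over all genes it was -0.05, 0.12 and -0.01. The helicase that unwinds the template, the MCM complex, fell in MCM5, MCM4 (-1.34 ± 0.14) and MCM2 (-1.31 ± 0.16). MCM5 read 9.23, 10.22 and 10.94 (lowest, median and highest) without MS275 and 7.68, 8.57 and 9.50 with it. The arms overlap only because the arrays of MS275 alone reach those of rapamycin alone. CDC6, which loads the helicase, fell by 1.33 ± 0.22 (SE), CDC45 and GINS2, which activate it, by 1.25 ± 0.14 and 1.22 ± 0.16, the leading-strand polymerase POLE by 0.70 ± 0.14 and the thymidylate synthase TYMS by 0.97 ± 0.21. The transcription factor E2F2, which drives entry into S phase, fell by 1.30 ± 0.18. MCM2, CDC6, GINS2, POLE, TYMS and E2F2 were picked after their values were seen. MCM10, a replication initiation factor (-1.50 ± 0.24), and CTPS1, which makes CTP (-1.23 ± 0.22), were picked likewise. With each array left out in turn 16 of the 20 stayed called every time. The arrays of narrow range are a control and an array of MS275 with 1 nM rapamycin, so they bear on the changes at 0 and 1 nM. Without them RRM2 changed by -1.81 at both levels, CDC6 by -1.50 and -1.48 and TYMS by -1.10 and -1.03. GINS2 (-0.72 and -1.36) and MCM5 (-1.38 and -1.70) stayed closer to 0 without rapamycin. The medians of the list without these arrays are not given here. With no term for rapamycin the list had 10 falls, and CDC6, E2F2 and POLE were not called (adjusted p = 0.0697, 0.0685 and 0.0560).

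**Figure D4:**
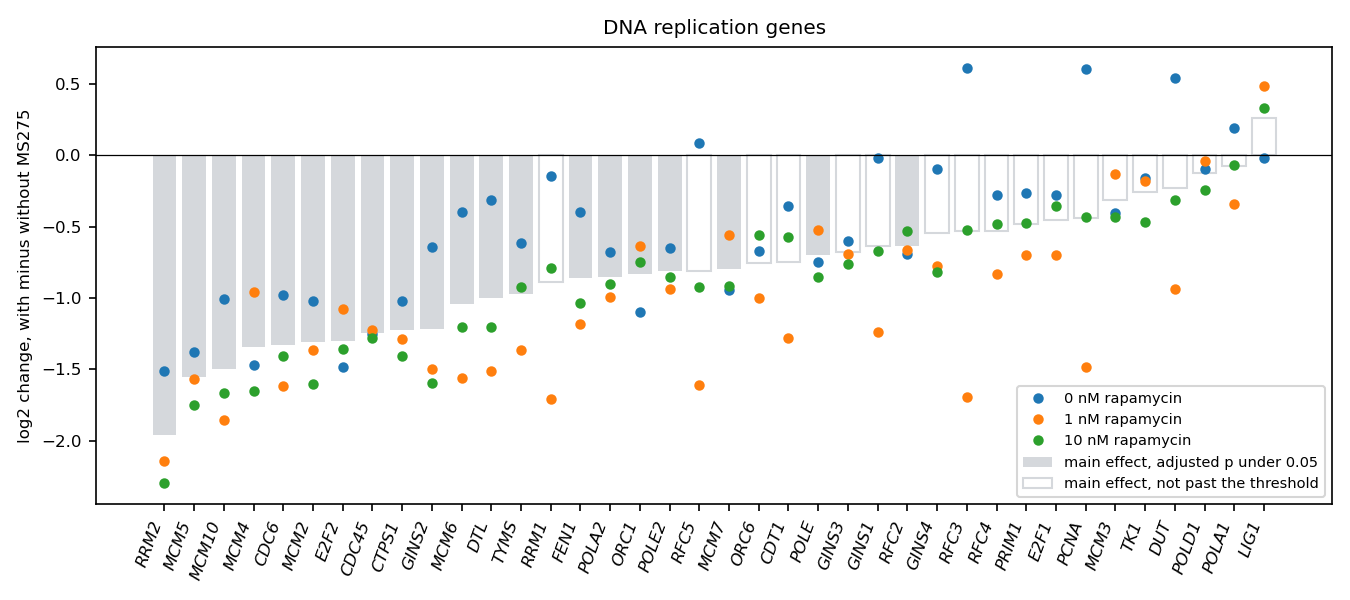
Log2 change with MS275 of the 38 measured DNA replication genes: bars are the pooled change (filled where the adjusted p is under 0.05) and points the change at 0, 1 and 10 nM rapamycin. RRM2 is lowest at -1.96, 1 gene lies above 0, and most points without rapamycin sit closer to 0 than those with it. Without the arrays of narrow range some of these gaps between 0 and 1 nM close, as given in the text.

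E2F factors bind short GC-rich sites, and the promoters of replication genes are known for them. The 250 bases upstream of the transcription start were searched on both strands, in the RefSeq promoter table (GRCh38.p14), for TTTCCCGC and TTTGGCGC. No stretch can match both forms. Of 35 replication genes with a promoter in the table, 15 (42.9%) held a match, against 485 (3.2%) of the 15382 tested genes with a promoter and 1.9% of all 35116 windows of this length. Of the 15 genes, 7 fell, which is 7 of the 18 fallen replication genes with a promoter (38.9%, against 42.9% of the whole list), so a match was no more frequent among the genes that fell. The promoters of 4 of these 7 are shown as examples of a match in genes that fell, with the match in capitals, from 5' to 3' on the gene's strand. They lie at chr16:85688955-85689204 (minus strand) for GINS2, chr1:23531234-23531483 (minus strand) for E2F2, chr12:132687343-132687592 (minus strand) for POLE and chr18:657403-657652 (plus strand) for TYMS, each ending at the base before the annotated start.
GINS2: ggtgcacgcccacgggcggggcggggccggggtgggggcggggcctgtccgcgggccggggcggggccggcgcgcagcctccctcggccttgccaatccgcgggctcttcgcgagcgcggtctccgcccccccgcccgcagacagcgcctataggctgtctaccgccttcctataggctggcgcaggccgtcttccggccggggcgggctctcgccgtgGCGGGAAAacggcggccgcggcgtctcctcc
E2F2: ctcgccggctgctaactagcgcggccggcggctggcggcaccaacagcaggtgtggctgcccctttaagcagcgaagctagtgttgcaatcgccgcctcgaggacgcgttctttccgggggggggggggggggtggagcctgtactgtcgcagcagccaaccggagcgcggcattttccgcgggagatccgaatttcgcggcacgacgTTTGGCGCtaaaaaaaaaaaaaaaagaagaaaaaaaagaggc
POLE: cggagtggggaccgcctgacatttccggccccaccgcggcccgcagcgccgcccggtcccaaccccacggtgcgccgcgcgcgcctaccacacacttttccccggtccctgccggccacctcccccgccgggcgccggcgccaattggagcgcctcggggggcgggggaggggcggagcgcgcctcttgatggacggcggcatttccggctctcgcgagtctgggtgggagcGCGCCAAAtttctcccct
TYMS: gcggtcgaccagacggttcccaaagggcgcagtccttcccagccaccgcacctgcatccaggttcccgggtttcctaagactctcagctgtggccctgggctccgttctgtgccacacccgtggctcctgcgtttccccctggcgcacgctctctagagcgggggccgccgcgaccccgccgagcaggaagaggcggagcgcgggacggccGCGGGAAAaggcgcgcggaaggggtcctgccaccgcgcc
The match begins 31 bases before the start in GINS2, 42 in E2F2, 18 in POLE and 39 in TYMS. In MCM2, CDC6 and CDC45, which also fell, these letters are not in this window.

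The GC box, GGGCGG, a site of SP1-type factors, was looked for in the promoters of genes held at every level; differences between shares were not tested. It was found on either strand in 77.4% of the 301 promoters of held rises and in 76.2% of the 214 of held falls, against 62.3% of all tested genes with a promoter. The median number of CpG dinucleotides was 20, 19 and 17 in the same order. The E-box CACGTG, which MYC with MAX and other factors bind, was found in 8.0% of the held rises and 15.0% of the held falls, against 9.7% of all. The genes compared were not matched for signal, and whether signal bears on any of these shares was not tested. AHNAK, at chr11:62545827-62546076 (minus strand), and CBFA2T3, at chr16:88941351-88941600 (minus strand), are shown as the rise and the fall with among the smallest p-values, with the GC boxes of both strands in capitals.
AHNAK: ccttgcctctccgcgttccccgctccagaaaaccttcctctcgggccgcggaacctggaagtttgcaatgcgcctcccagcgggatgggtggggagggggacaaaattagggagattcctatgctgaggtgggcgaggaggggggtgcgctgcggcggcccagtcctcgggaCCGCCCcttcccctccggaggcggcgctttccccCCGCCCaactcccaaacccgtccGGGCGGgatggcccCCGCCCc
CBFA2T3: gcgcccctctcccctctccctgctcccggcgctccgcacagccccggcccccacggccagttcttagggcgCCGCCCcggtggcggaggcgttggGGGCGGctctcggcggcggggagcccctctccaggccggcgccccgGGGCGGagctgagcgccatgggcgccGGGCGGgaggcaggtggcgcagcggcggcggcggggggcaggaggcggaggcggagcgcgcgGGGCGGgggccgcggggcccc
The window of AHNAK holds 4 GC boxes and 22 CpG, and that of CBFA2T3 holds 5 GC boxes and 36 CpG. Both genes thus carry the box several times and moved in opposite directions.

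Genes of mitosis and the cell cycle engine fell beside those of replication. Of 30 mitotic genes 10 fell and 0 rose, with a median of -0.56. FOXM1 and MYBL2, transcription factors of the G2 and M phases, fell by 1.14 ± 0.17 (SE) and 1.11 ± 0.13, NCAPH, a condensin subunit, by 0.89 ± 0.15, and the proliferation marker MKI67 by 0.80 ± 0.15. AURKA, a spindle kinase, fell by 0.71 ± 0.17 (adjusted p = 0.0133). Of 18 cyclins, cyclin-dependent kinases and their phosphatases 6 fell and 0 rose. CDC25A, which releases the G1/S kinases, fell by 1.46 ± 0.13, CCNB2 by 1.01 ± 0.21, CDK4 by 0.84 ± 0.21 and CDC25C by 0.74 ± 0.15. KIF20A, a kinesin of cell division picked after its value was seen, fell by 1.10 ± 0.23. With each array left out in turn, 8 of the 10 mitotic and 4 of the 6 cyclin and kinase genes stayed called every time. Homologous recombination genes gave 7 falls and 0 rises of 23 (4 of the 7 every time), among them the DNA translocase RAD54L (-0.73 ± 0.18). Few of these falls held at every level: 3 of the 10 mitotic, 1 of the 6 cyclin and kinase and 1 of the 7 recombination genes. MKI67 changed by -1.32, -0.37 and -0.69 and AURKA by -1.17, -0.58 and -0.31 at 0, 1 and 10 nM. With no term for rapamycin the counts of the 3 lists were 1, 3 and 3, and of the genes named in this paragraph CDC25A, CDK4 and KIF20A stayed called.

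Histone genes moved in both directions. Of 15 measured genes of the histone list, 6 fell and 1 rose. Which of their transcripts are polyadenylated was not tested. The linker histone H1-10 rose by 1.96 ± 0.30 (adjusted p = 0.000472), from a median of 8.69 to one of 11.04. H2AC6 fell by 1.77 ± 0.29, the damage-associated variant H2AX by 0.97 ± 0.11 and H2BC21 by 0.95 ± 0.19. The core histone genes are near-identical copies, and how far each probe set reads its relatives was not tested. Of 19 polycomb and DNA methylation genes, UHRF1, which brings the maintenance methyltransferase to DNA, fell by 1.59 ± 0.41 and the methyltransferase DNMT3A by 0.82 ± 0.17 (adjusted p = 0.0599 with its probe sets averaged), while PHC1 of polycomb complex 1 rose by 0.75 ± 0.17. Without the arrays of narrow range these counts were 5 falls and 2 rises.

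Metabolic and growth genes were mostly on the side of the falls. Of 27 genes of glycolysis and the hypoxia response 8 fell and 1 rose, with a median of -0.48. The glucose transporter SLC2A1 fell by 1.22 ± 0.15 (SE), the first enzyme, HK2, by 1.00 ± 0.12, GPI by 0.91 ± 0.14, ALDOA and ALDOC, aldolases, by 0.86 ± 0.13 and 0.88 ± 0.21 and the lactate dehydrogenase LDHA by 0.72 ± 0.12. LDHA was among the brightest of these probe sets, at 12.50, 12.96 and 13.34 (lowest, median and highest) without and 11.41, 12.22 and 12.90 with MS275. Of 19 sterol and fatty acid genes 5 fell and 0 rose: FASN, the desaturase SCD (-0.99 ± 0.14), the carboxylase ACACA (-0.64 ± 0.11), FDPS (-0.62 ± 0.13) of the mevalonate pathway and NSDHL (-0.72 ± 0.17) of cholesterol synthesis. NDRG1, induced by hypoxia, was the one that rose (0.98 ± 0.18). With no term for rapamycin the 8 became 5 and the 5 became 2, and SCD, FDPS, NSDHL and ALDOC were not called (adjusted p = 0.102, 0.146, 0.0717 and 0.0811).

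Genes of growth and ribosome assembly gave 11 falls and 0 rises of 36, with a median of -0.52. The polyamine enzyme ODC1 fell by 1.04 ± 0.21, the folate carrier SLC19A1 by 0.85 ± 0.13 (SE), CAD, which starts pyrimidine synthesis, by 0.84 ± 0.14 and the rRNA processing factor UTP20 by 0.78 ± 0.12. Without the arrays of narrow range 17 fell. Of 33 amino acid supply genes 5 fell and 0 rose. The subunits of the large neutral amino acid transporter, SLC7A5 and SLC3A2, fell by 1.15 ± 0.16 and 0.85 ± 0.22, and the proline synthesis enzyme ALDH18A1 by 0.82 ± 0.17. That count was 3 without control replicate 3, MS275 replicate 1, replicate 2 of 1 nM or replicate 2 of 10 nM rapamycin and on quantile-normalised values, where SLC3A2 was not called (adjusted p = 0.0607), and 2 with no term for rapamycin, where neither SLC3A2 (adjusted p = 0.218) nor SLC7A5 (0.0716) was called. SLC3A2 changed by -1.48, -0.22 and -0.86 at 0, 1 and 10 nM and did not hold at every level. The ribosomal proteins themselves gave 0 rises and 0 falls of 28 by limma (3 higher at an unadjusted p under 0.05), with changes from -0.06 to 0.39. Smaller counts were found for the aminoacyl tRNA synthetases (2 of 17 fell, among them IARS1 by 0.47 ± 0.11), the proteasome (3 of 26 fell, of which 0 stayed called with every array left out in turn), oxidative phosphorylation (5 fell and 1 rose of 24), lysosome and autophagy genes (2 rose and 1 fell of 27, or 7.4% and 3.7%), mTOR components (1 rose and 2 fell of 26, or 3.8% and 7.7%) and metallothioneins (1 of 9 rose, MT2A, by 1.15 ± 0.25). CYC1 and NDUFS3 of the respiratory chain fell by 0.71 ± 0.16 and 0.68 ± 0.15, and NPC2, which moves cholesterol out of lysosomes, rose by 0.63 ± 0.12. HSP90B1, an endoplasmic reticulum chaperone, was the 1 of 21 unfolded protein response genes called (4.8%, against 3.94% of all genes that fell). It fell by 0.73 ± 0.16 (adjusted p = 0.465 with its probe sets averaged).

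Tubulin genes moved in both directions. TUBA1A, the alpha tubulin of neurons, rose by 1.95 ± 0.20 (adjusted p = 1.05e-05), with a highest value of 8.15 without and a lowest of 8.93 with MS275. TUBB fell by 1.07 ± 0.16, TUBA1B by 0.72 ± 0.09 and TUBA1C by 0.62 ± 0.11, and TUBA4A by 0.84 ± 0.20, while MAP4, which stabilises microtubules, rose by 0.49 ± 0.12. Thus of 20 tubulin and microtubule genes 2 rose and 4 fell (10.0% and 20.0%, against 4.95% and 3.94% of all genes). TUBA1C lost its call with no term for rapamycin (adjusted p = 0.0999). The alpha tubulins are closely related in sequence, and cross-reading of their probe sets was not tested. Without control replicate 1, and without both arrays of narrow range, 7 fell.

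Antigen presentation was the list with the largest share of rises. Of 16 MHC class II genes 7 rose (43.8%, against 4.95% of all genes) and 0 fell, with a median of 0.50. HLA-DRB4 rose by 1.61 ± 0.20 (adjusted p = 5.48e-05), HLA-DOA, which modulates peptide loading, by 1.33 ± 0.18, HLA-DMA, a peptide-loading chaperone, by 0.79 ± 0.11 and HLA-DPB1 by 0.61 ± 0.12. HLA-DOA read 6.36, 6.82 and 7.51 (lowest, median and highest) without and 7.72, 8.07 and 8.80 with MS275, with no overlap. Its other probe sets changed by -0.09 to 0.44. HLA-DMB, the partner of HLA-DMA, rose by 0.81 ± 0.17, HLA-DRA by 0.51 ± 0.13 and HLA-DRB1 by 0.48 ± 0.11. All 7 stayed called with every array left out in turn, and 3 of the 7 held at every level. HLA-DRA changed by 0.84, 0.43 and 0.20 and HLA-DRB1 by 0.68, 0.51 and 0.20 at 0, 1 and 10 nM rapamycin, and neither held. The DR genes differ between people and are alike in sequence, so a probe set named for one may read others. CIITA, the master activator of the class, was not called, at 0.29 (95% interval 0.574 to either side), nor was the invariant chain CD74, at 0.22 (0.176), which had a median of 13.66 without MS275 and was called, at 0.44, with its probe sets averaged (adjusted p = 0.0113). With no term for rapamycin 4 class II genes rose, and HLA-DPB1, HLA-DRA and HLA-DRB1 were not called (adjusted p = 0.174, 0.103 and 0.188). Of 27 class I and interferon genes 5 rose and 1 fell. IFI6 and OAS1, interferon-induced, rose by 1.59 ± 0.24 and 1.01 ± 0.18, NLRC5, the class I activator, by 1.26 ± 0.14 and HLA-E by 0.60 ± 0.10. These 4 stayed called with every array left out in turn.

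Signalling genes rose at several steps of their pathways. Of 25 TGF-beta and WNT regulators 8 rose and 1 fell (32.0% and 4.0%). The coreceptor TGFBR3 rose by 2.09 ± 0.25 (SE), the receptor TGFBR2 by 1.35 ± 0.26, the transducer SMAD3 by 1.26 ± 0.18, its inhibitor SMAD7 by 1.14 ± 0.17 and the WNT antagonist DKK1 by 1.19 ± 0.17. ID3 and ID1, inhibitors of helix-loop-helix factors and targets of SMAD signalling, rose by 1.22 ± 0.23 and 0.67 ± 0.14, and the WNT receptor FZD7 by 0.75 ± 0.17. All 8 rises stayed called with every array left out in turn. DKK1 read 4.06, 4.68 and 5.05 (lowest, median and highest) without and 5.58, 5.72 and 6.52 with MS275, with no overlap. Of 24 Notch genes 5 rose and 1 fell (20.8% and 4.2%, against 4.95% and 3.94% of all genes). The target HEY1 read 5.26, 5.85 and 6.67 without and 8.21, 8.58 and 10.22 with MS275. The related HEY2 rose by 0.95 ± 0.21, the coactivator MAML2 by 1.09 ± 0.20 and the ligand JAG2 by 0.67 ± 0.17, and MFNG, a glycosyltransferase that modifies Notch receptors, fell by 1.20 ± 0.12. Of 18 NF-kB genes 3 rose and 3 fell (16.7% each). The inhibitor NFKBIA and the subunit REL rose by 1.09 ± 0.14 and 1.01 ± 0.16, and the subunits NFKB1 and NFKB2 fell by 0.95 ± 0.22 and 0.66 ± 0.11. Of 27 cytokine receptors 5 rose and 0 fell, with IL13RA2 far ahead of the chemokine receptors CCR2 (0.94 ± 0.14) and CCR7 (0.76 ± 0.18) and of IL13RA1 (0.60 ± 0.12, adjusted p = 0.0784 with its probe sets averaged). With genes under a mean signal of 5 left out, the receptors gave 2 rises.

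Lists of genes typical of other tissues gave a few large rises and many members that were not called. Of 33 neuronal genes 4 rose and 0 fell: MAP2, the sodium channel SCN3A (2.45 ± 0.57), the vesicle protein SYT11 (1.44 ± 0.12) and the microtubule protein MAPT (1.17 ± 0.10). The other 29 left the median at 0.12. MAPT read 6.95, 7.31 and 7.50 (lowest, median and highest) without and 8.19, 8.46 and 8.62 with MS275, with no overlap. Of 25 germline genes DAZL and STK31 (0.61 ± 0.13) rose (8.0%, against 4.95% of all genes), and of 10 carbonic anhydrases CA2 and CA13 (1.10 ± 0.20). Of 32 actin regulators 6 rose and 0 fell, among them AHNAK, GSN, LIMA1 (1.36 ± 0.27), which bundles actin filaments, and the capping protein CAPG (0.77 ± 0.17). Of 29 adhesion and gap junction genes 5 rose and 0 fell, all the named ones integrins: ITGB7 (1.06 ± 0.26), which pairs with ITGA4 in lymphoid cells, ITGA3 (0.96 ± 0.18), ITGA6 (0.64 ± 0.13) and ITGB5 (0.63 ± 0.13). ITGA6 lost its call with no term for rapamycin (adjusted p = 0.0790). The gap junction protein GJA1 had the largest value of that list, 1.62 ± 0.54, and was not called (adjusted p = 0.0758). Its change was 3.43 without rapamycin (adjusted p = 0.0344 there), 0.52 at 1 nM and 0.73 at 10 nM. It was called without replicate 1 or 2 of MS275 with 1 nM (adjusted p = 0.0450 and 0.0424) and without replicate 1 of MS275 with 10 nM rapamycin (0.0341), and with the replicate number as a block (0.0255).

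Markers of other cell types moved in single members, and with 10 to 17 markers a list 1 called gene is 5.9% to 10.0%, against 4.95% of all genes that rose. BACH2 rose among 12 B cell markers (1.20 ± 0.26), CSF1R among 12 myeloid (0.78 ± 0.13), FN1 among 17 fibroblast (1.38 ± 0.33) and ESAM among 10 endothelial markers (0.89 ± 0.12), and 0 of 11 T cell, 11 erythroid and platelet and 12 epithelial markers were called by limma (0, 1 and 0 at an unadjusted p under 0.05). FN1 lost its call with no term for rapamycin (adjusted p = 0.0613). The mean signal of the B cell list ran from 5.47 to 5.74 without MS275 and from 5.70 to 5.99 with it, and that of the endothelial list from 4.57 to 5.25 and from 4.72 to 5.16. Whether another cell type had a part in these values was not tested, and the cultures are of a cell line.

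Of 26 plasma cell genes 2 rose and 2 fell (7.7% each, against 4.95% and 3.94% of all genes). Besides NCAM1, the orphan receptor GPRC5D rose, from 7.38, 7.51 and 8.26 (lowest, median and highest) to 8.89, 9.22 and 9.78, a change of 1.56 ± 0.13 (adjusted p = 1.95e-06) with no overlap. SLAMF7, a surface receptor of plasma cells, fell by 1.73 ± 0.34 (adjusted p = 0.00338), and SDC1 (CD138), the surface proteoglycan that marks them, by 0.74 ± 0.20 (adjusted p = 0.0272). The fall of SDC1 lost its call without control replicate 2 or 3, replicate 3 of MS275 with 1 nM or replicate 2 of MS275 with 10 nM rapamycin (adjusted p = 0.0505, 0.0526, 0.0576 and 0.0728), and on quantile-normalised values (0.0645). The regulators of the plasma cell state were not called on the pooled effect: IRF4 changed by -0.20 ± 0.13, XBP1 by 0.16 ± 0.16 and PRDM1 by 0.76 ± 0.27 (adjusted p = 0.108). PRDM1 was called by limma without both arrays of narrow range (0.78, adjusted p = 0.0142) and without replicate 1 of MS275 with 1 nM rapamycin alone (0.0158). It was also called with the replicate block (0.0226), with array weights (0.0269) and on quantile-normalised values (0.031). IRF4 was at 0.11 with its probe sets averaged. CD38 stood at 0.39 ± 0.13 and CCND2 at -0.51 ± 0.21, neither called. CD38 was called without replicate 1 of 10 nM rapamycin (adjusted p = 0.0436) and with the replicate block (0.0403). CCND2 was called by limma without control replicate 1 (0.0334), without both arrays of narrow range (0.0427) and with array weights (0.00614).

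MYC, whose protein is the subject of the study's title, had nearly the same mRNA signal in both arms. It read 11.66, 12.41 and 12.80 (lowest, median and highest) without MS275 and 11.89, 12.40 and 12.84 with it, and the arms overlap almost fully. The change was 0.17 with a 95% interval of 0.321 to either side (adjusted p = 0.694). Protein was not measured. Its partner MAX changed by 0.29 (0.431 to either side, adjusted p = 0.540). Of 12 genes of the MYC network 0 rose and 0 fell by limma (1 was higher at an unadjusted p under 0.05, and 1 rose without the arrays of narrow range). In a list of 17 genes drawn up for MYC turnover 1 rose and 3 fell (5.9% and 17.6%, against 4.95% and 3.94% of all genes). AURKA is one of those that fell. KCNK1 is the one that rose, by 0.70 ± 0.13 (adjusted p = 0.102 with its probe sets averaged). It is a potassium channel, and any link of it to MYC turnover was not tested. Without the arrays of narrow range 2 rose and 5 fell.

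A few genes of cell death moved, in both directions. Of 15 BCL2 family genes 2 rose and 2 fell (13.3% each, against 4.95% and 3.94% of all genes). BCL2L11 (BIM), which triggers apoptosis, rose by 0.93 ± 0.19 (adjusted p = 0.00367), and BID, another trigger, fell by 1.12 ± 0.17 (adjusted p = 0.000357). BID read 8.51, 8.72 and 9.47 (lowest, median and highest) without and 7.34, 7.82 and 8.38 with MS275, with no overlap. MCL1, on which myeloma cells often depend, was not called, at 0.17 ± 0.09, nor was BCL2, at 0.46 ± 0.15 (adjusted p = 0.0741, 0.0406 without control replicate 3 and 0.0178 with the replicate block). The death ligand TNFSF10 (TRAIL) was the 1 of 12 death receptor and caspase genes (8.3%) that rose, by 1.29 ± 0.19. Of 16 p53 targets 4 rose and 0 fell, among them CDKN1A and ZMAT3 (1.03 ± 0.16). That count was 2 without control replicate 2, MS275 replicate 3, replicate 1 or 2 of 1 nM, replicate 1 or 2 of 10 nM rapamycin, replicate 3 of MS275 with 1 nM or replicate 2 of MS275 with 10 nM rapamycin.

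**Figure D5:**
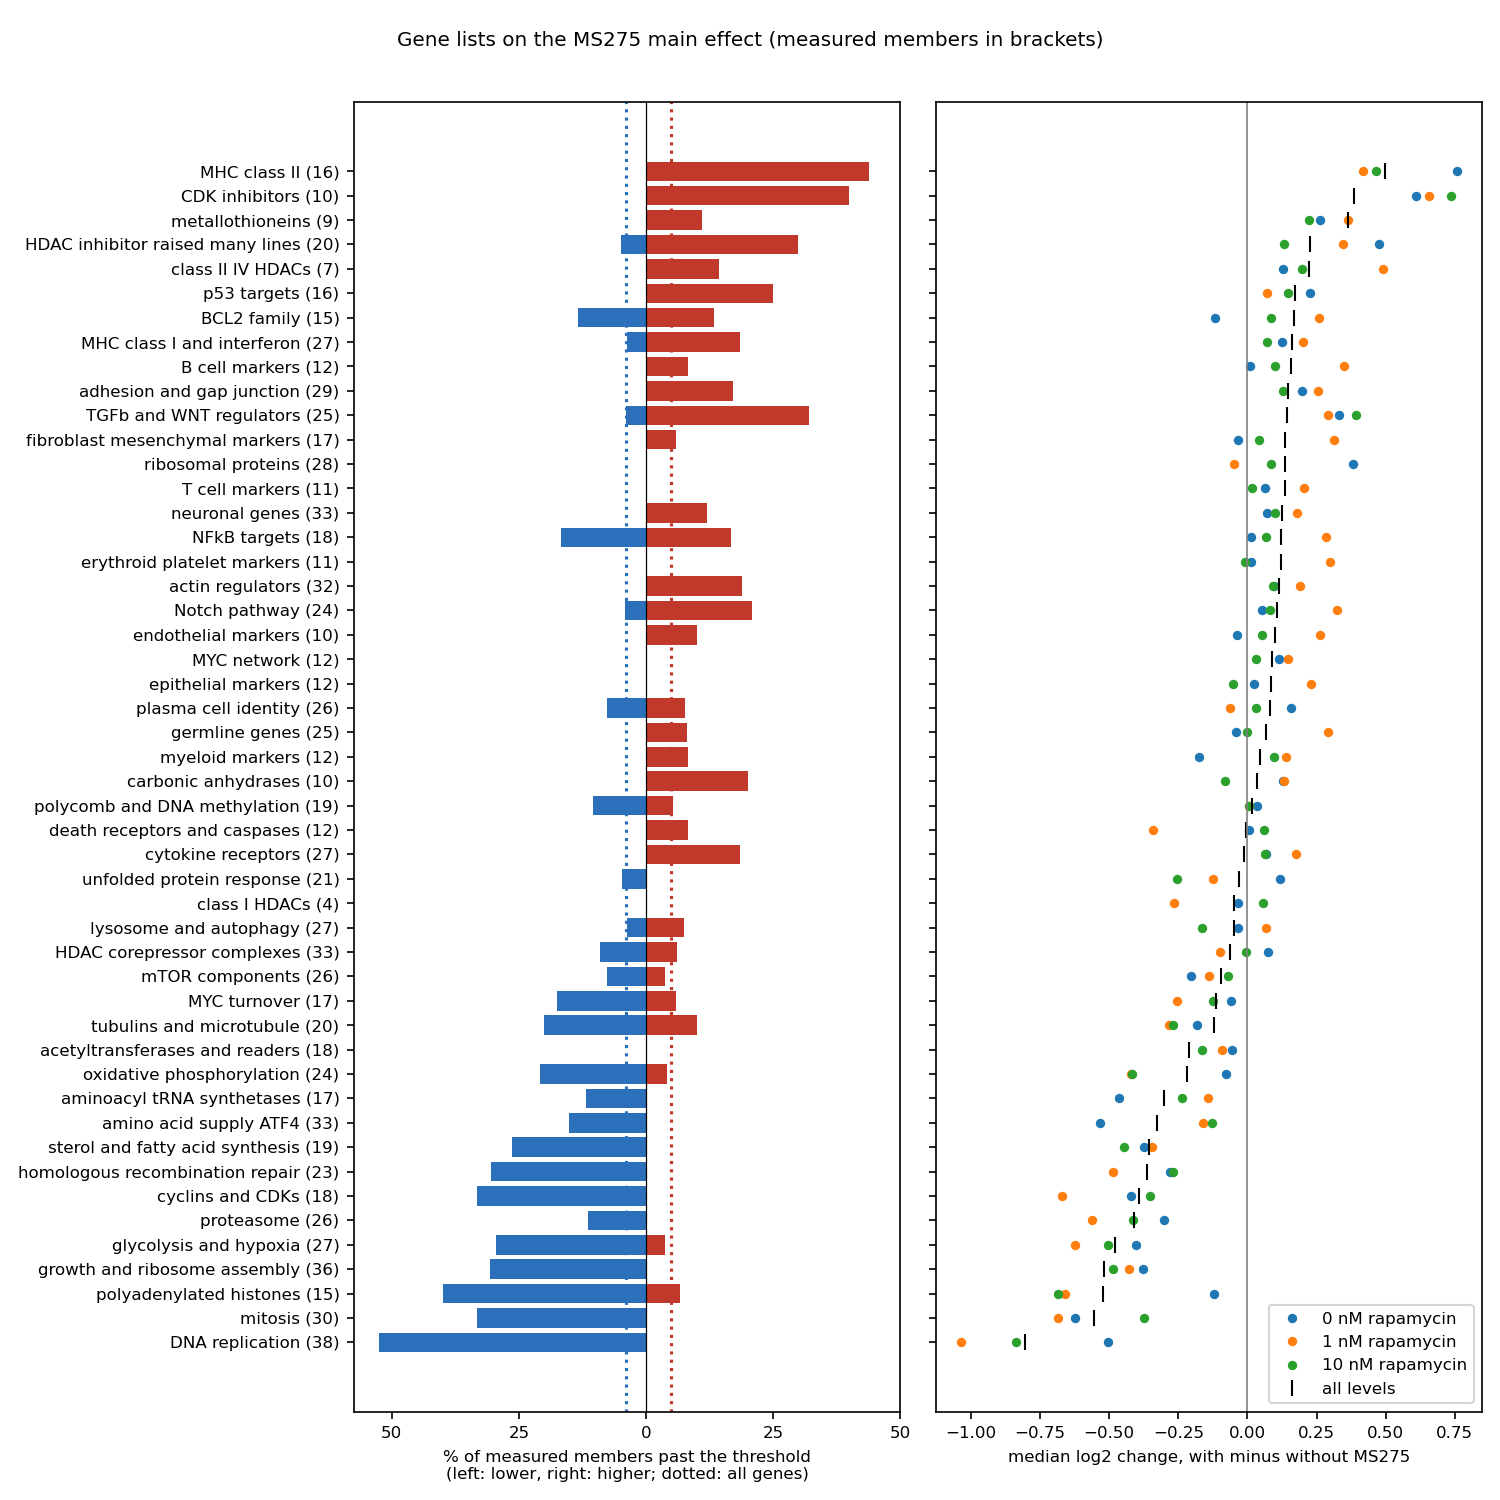
Left, percent of each list's measured members that rose (red) or fell (blue) with MS275 on the pooled effect; dotted lines are the shares of all genes, 4.95% higher and 3.94% lower. Right, the list's median log2 change at 0, 1 and 10 nM rapamycin (points) and pooled (black ticks). DNA replication is lowest with a pooled median of -0.80 and MHC class II highest with 0.50.

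Of the falls in growth and ribosome assembly 5 of 11 held at every level, in glycolysis and hypoxia 6 of 8, in sterol and fatty acid synthesis 3 of 5, in histones 3 of 6 and in amino acid supply 1 of 5. Of the rises in the TGF-beta and WNT list 6 of 8 held, in MHC class I and interferon 4 of 5, in the list of genes raised by deacetylase inhibitors 3 of 6, in actin regulators 3 of 6, in Notch genes 2 of 5, in adhesion 1 of 5 and in p53 targets 1 of 4. Over all genes 389 of 978 rises and 252 of 780 falls held. Without the arrays of narrow range, besides the counts given above, the falls were 6 in place of 3 for the proteasome, 4 in place of 2 for plasma cell genes and 2 in place of 0 for adhesion genes, and 8 more list counts were higher by a single gene. With the replicate number as a block, 15 counts of the lists moved by over 1.5 times, 8 of them by a single gene. The others were the falls of the proteasome (7 in place of 3), of mTOR components (6 in place of 2), of amino acid supply (8 in place of 5) and of cytokine receptors (2 in place of 0), and the rises of corepressor complexes (4 in place of 2), of polycomb and DNA methylation (3 in place of 1) and of plasma cell genes (4 in place of 2).

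No gene's response to MS275 differed between rapamycin levels after adjustment. The F test of the difference called 0 genes, with a smallest adjusted p of 0.1125, and 257 genes (1.30%) had an unadjusted p under 0.05. That last number leaned on single arrays: with each left out in turn it ran from 135 (without replicate 3 of 1 nM rapamycin) to 1036 (without control replicate 2), it was 701 and 493 without replicates 2 and 3 of MS275 with 1 nM rapamycin, 142 without replicate 1 of that group and 172 without replicate 1 of 1 nM rapamycin, and it was 820 with the replicate block. Between 1 and 0 nM, 10 and 0 nM, and 10 and 1 nM, 0 genes were called, and 916 (4.63%), 194 (0.981%) and 123 (0.622%) had an unadjusted p under 0.05. As fractions, these shares and that of the F test lie below 0.05, the fraction that would pass with no difference in any gene. Why was not tested, and real differences may have been missed. Without control replicate 2 the F test called 1 gene. This does not show that the responses are equal: at a single level the median 95% interval reached 0.539 to either side, and 0.603 at 10 nM.

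The 6 genes with the smallest p in that test came in 2 patterns. DISP2, a membrane protein of the dispatched family, read 5.84, 5.92 and 5.79 in the controls and 7.89, 8.05 and 7.68 with MS275 alone. With 1 nM rapamycin it read 5.56, 5.51 and 5.82, and 6.38, 5.94 and 6.34 with both, and with 10 nM 5.58, 5.60 and 5.89, and 5.86 and 5.90 with both. The change was thus 2.02, 0.59 and 0.19 at 0, 1 and 10 nM (unadjusted p = 5.69e-06, adjusted p = 0.113). C3AR1, the receptor of complement C3a, and EMP2, a tetraspan membrane protein, had the same order, with 2.69, 1.29 and 0.83 and with 2.75, 1.12 and 0.70, as had the adenosine receptor ADORA3 with 1.36, 0.15 and -0.28. ADORA3 was not called on the pooled effect, at 0.46 ± 0.21, but its other probe set changed by 1.19 ± 0.29. With its probe sets averaged ADORA3 was called by limma, at 0.83 (adjusted p = 0.00871). C3AR1 and EMP2 still met the rule for holding at every level. The histone gene H2BC12 and the respiratory chain subunit NDUFB8 were near or above 0 without rapamycin and below 0 with it, with 0.37, -2.01 and -1.44 and with 0.09, -1.51 and -1.24. H2BC12 read 6.60, 7.05 and 6.71 in the controls and 8.38 to 9.68 in the 6 arrays of rapamycin alone, against 6.65 to 7.94 in all 8 arrays with MS275. NDUFB8 was called on the pooled effect (-0.86 ± 0.22, adjusted p = 0.0202, and 0.0546 without replicate 2 of MS275 with 10 nM rapamycin).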

How the data were processed

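The authors deposited 1 table of log2 signals for 54613 probe sets on 17 arrays. The submitters' processing notes name affy and RMA, which corrects background, normalizes between arrays and sums the probes of a set on the log2 scale; which settings were used is not given in the sources used here. Medians of the arrays ran from 5.09 to 5.36, and the values were used as deposited. Of the probe sets, 41091 had 1 gene symbol in the platform annotation, 1801 several and 11721 none, and 41037 of the singly named sets matched a RefSeq gene. The brightest singly named set, by its mean over the 17 arrays, stood for its gene.

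Groups came from the array titles. limma 3.58.1 (R 4.3.3; lmFit and eBayes) fitted MS275 with the rapamycin level as a factor, and 6 group means for the single levels and their differences, with Benjamini-Hochberg adjustment over 19775 genes. The fit was tested on simulated data. The members and the 49 gene lists were chosen with earlier results of these data known. The genes named are the 12 largest rises and falls whose arrays did not overlap within a level, the 4 list members with the smallest adjusted p, 36 genes of interest, of which 35 were measured, and the 6 genes with the smallest F test p. Of the 225 genes this rule selects, 84, of which 24 were called, stand only within counts or are not reported here. Outside this rule, and named after their values were seen, are MCM2, MCM10, CDC6, GINS2, POLE, TYMS, CTPS1, E2F2, KIF20A, H2BC21, ODC1, NSDHL, NDRG1, ALDOC, TUBA4A, MAP4, HLA-DMB, HLA-DRA, HLA-DRB1, ID1, ID3, FZD7, JAG2 and the genes of the closing observations.

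Same-numbered arrays deviated together from their group means at 0 nM (r across genes 0.49, 0.40 and 0.51 for replicates 1, 2 and 3) and 1 nM rapamycin (0.35, 0.52 and 0.73), a pairing that rests on the data, as the labels give only the numbers. At 10 nM r was 0.10 and -0.63, and the numbers do not pair the arrays. The replicate block was a single term shared by all levels, so every result with it also treats the arrays at 10 nM as paired. The alternatives tried were the replicate block, array weights, quantile normalization, a mean signal above 5, the mean of a gene's probe sets, eBayes with trend and robust settings, leaving out each array or both arrays of narrow range, and other forms of the model.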

Additional observations from a re-analysis of the deposited data

Results flagged for a closer look

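Dixon's test was applied to 360 groups of arrays, the 8 with and the 9 without MS275 for each of 180 genes. In these, 13 single arrays lay apart from the rest of their arm, 3.6% of the groups. Chance alone gives about 1 in 20 where all arrays of a group are alike. Each arm pools all rapamycin levels, so that rate is no fair yardstick here. Of the 13, 9 were control replicate 1 and 3 were replicate 1 of MS275 with 1 nM rapamycin, the arrays of narrow range.

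Control replicate 1 stood low among the arrays without MS275 in HDAC1 (9.28, against 10.06 to 10.52 on the others), MAX (8.65, against 9.52 to 10.26), PLAGL1 (4.54, against 6.30 to 7.76), SLAMF7 (8.48, against 9.79 to 11.0), TBL1XR1 (9.18, against 10.71 to 11.33), TSHR (6.08, against 7.21 to 8.12) and UNG, a uracil glycosylase of DNA repair (6.93, against 7.91 to 8.65). It stood high in CAPG (5.74, against 4.92 to 5.26) and ITGB5 (5.48, against 4.67 to 5.06). Replicate 1 of MS275 with 1 nM rapamycin stood low among the arrays with MS275 in HDAC1 (9.35, against 9.69 to 9.92), PDGFC (3.23, against 4.86 to 6.25) and the caveolin CAV2 (4.53, against 6.31 to 7.78). Control replicate 2 stood high in CAV2 (6.15, against 3.80 to 4.60).

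Without both arrays of narrow range the changes kept their direction. The falls were -2.03 ± 0.22 (SE) in PLAGL1, -1.82 ± 0.32 in SLAMF7, -1.72 ± 0.13 in TSHR and -1.24 ± 0.13 in UNG, and the rises 2.90 ± 0.12 in PDGFC, 2.33 ± 0.26 in CAV2, 0.89 ± 0.14 in TBL1XR1, 0.81 ± 0.19 in CAPG and 0.60 ± 0.10 in ITGB5, all called by limma. HDAC1 became called, at -0.47 ± 0.07, and MAX, at 0.26 ± 0.15, was not.

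Probe sets with no gene symbol were used in no comparison of genes. Tested with all 54613 probe sets, 371 of these 11721 were past the threshold of the pooled MS275 effect (3.17%, against 7.06% of the singly named sets), 230 higher and 141 lower. In 127 of the 371 the arrays with and without MS275 did not overlap at any level. Among the 19775 genes there was no overlap in 674 (3.41%), of which 395 were called higher and 274 called lower.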

How the results depend on the processing

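Counts moved with the setting. Genes called both in the main fit and under another setting kept their direction. Fits of largely the same arrays leave little room for a called gene to change sign, so this is no test of direction. The block with the replicate number gave 2555 genes on the pooled effect, among them 1757 of the 1758, and 871 held at every level, among them 624 of the 641. At single levels the block gave 662, 559 and 338 genes at 0, 1 and 10 nM in place of 295, 243 and 86. At 10 nM the replicate numbers do not pair the arrays, which limits the 338 and the pooled and held counts with the block. Without the arrays of narrow range 2639 genes were called (1226 lower), 1683 of them shared with the 1758 and in the same direction, with 531 and 262 genes at 0 and 10 nM. Array weights gave 3374 genes (1819 higher, 1555 lower), 1504, 922 and 325 at 0, 1 and 10 nM, 1052 held at every level and 2 in the F test of differences. With the arrays of a single level alone, 9, 39 and 0 genes were called at 0, 1 and 10 nM. The cause of these moves was not tested, other than the fewer arrays of the last setting. Leaving out each array in turn gave 1449 to 2441 genes on the pooled effect (801 to 1292 higher, 591 to 1149 lower), 97 to 362, 80 to 413 and 11 to 157 at 0, 1 and 10 nM, 464 to 774 held at every level and 0 to 1 in the F test. The remaining settings gave 1607 to 1903 genes on the pooled effect. The share of calls that were higher, 55.6%, ran from 50.8% with a mean signal above 5 to 60.3% without MS275 replicate 2. Of the 163 called genes named, 161 stayed called with every array left out in turn (the exceptions are SDC1 and NDUFB8), and array weights, the block, trend and robust settings, equal weights of the levels and leaving out the arrays of narrow range ended none of the 163 calls. HDAC2 ran from -0.257 to 0.0436 with single arrays left out, above 0 without replicate 1 of MS275 with 1 nM or with 10 nM rapamycin (0.0344), and IRF4 turned to 0.106 with its probe sets averaged, none of them called. Of the 98 counts of the gene lists, 32 moved by over 1.5 times with array weights and 20 without the arrays of narrow range, all of them up, and 4 to 17 with a single array left out. With no term for rapamycin 12 moved, all of them down.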

Other observations

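The genes below were picked after their values were seen, since no list of the report holds them, and their values are given as a description. Among genes with an arm far above the other, IL15, a cytokine that sustains natural killer and memory T cells, read 3.41, 3.90 and 4.80 (lowest, median and highest) without MS275 and 5.31, 6.13 and 7.80 with it, a change of 2.50 ± 0.36 (SE). The chemokine CCL5 read 7.37, 9.33 and 9.98 without and 10.52, 11.77 and 12.10 with MS275 (2.48 ± 0.39). CAV1, the coat protein of caveolae, read 5.76, 6.41 and 8.07 without and 8.60, 9.02 and 9.48 with it (2.47 ± 0.25), and its partner CAV2 rose by 2.13 ± 0.33. VCL (vinculin), which links integrins to actin, went from 7.86, 8.29 and 9.46 to 10.04, 10.54 and 10.81 (1.96 ± 0.19). The arms do not overlap in IL15, CCL5, CAV1 or VCL.

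HEXIM1, which holds the elongation factor P-TEFb inactive, read 6.83, 7.57 and 8.04 without and 8.76, 9.25 and 9.79 with MS275 (1.77 ± 0.19). FKBP1B, a member of the family of proteins that bind rapamycin, read 2.80, 3.40 and 3.83 without and 4.52, 6.07 and 6.98 with it (2.53 ± 0.21). The arms are apart in both genes. TOX2, a high mobility group factor, rose by 2.44 ± 0.26, the retinoic acid hydroxylase CYP26B1 by 2.24 ± 0.19 and the AP-1 subunit JUN by 1.88 ± 0.37.

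Among the falls, HDGF, a growth factor that binds chromatin, read 10.01, 10.30 and 10.97 without and 8.90, 8.97 and 9.36 with MS275 (-1.35 ± 0.11). HPDL, a mitochondrial dioxygenase, went from 6.65, 6.99 and 7.70 to 5.46, 5.65 and 6.04 (-1.40 ± 0.14) and the integrin ITGA8 from 9.47, 10.15 and 10.80 to 8.06, 8.48 and 9.34 (-1.49 ± 0.25). The arms of these 3 genes do not overlap. TRIP13, an ATPase of the mitotic checkpoint, fell by 1.47 ± 0.22, the repressor E2F7 by 1.23 ± 0.31 (adjusted p = 0.0184 by limma, and 0.0583 with no term for rapamycin) and UNG by 1.18 ± 0.24.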
